A study of Mus musculus with 20 samples.

Results

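The comparison covered 8 of the 20 tumours of the series: 4 peritoneal malignant mesotheliomas from mice carrying a Dmt1 transgene (labelled Dmt1Tg) and 4 from wild-type mice labelled Wild type(Dmt1). Membership follows the labels of the samples, which name the 2 groups as a pair. All 8 mice had been given crocidolite, an amphibole asbestos rich in iron, by intraperitoneal injection of 1.5 mg at 6 weeks of age and again at 7 weeks, 3 mg in all, and were followed for 600 to 700 days or until signs of mesothelioma appeared. DNA of each tumour, labelled with Cy5, was hybridised to an array of 60-base probes together with Cy3-labelled DNA of non-neoplastic C57BL/6 kidney, and the labels give the kidney the same genotype as its tumour: wild type for Wild type(Dmt1) and Dmt1Tg for Dmt1Tg. The strain of the tumour-bearing mice, their sex, the promoter or tissue of the transgene, the share of tumour cells in each sample, and whether each tumour came from a different animal or the groups were littermates are not in the labels. The p-values below therefore speak for the scatter among these 8 samples only, which may be partly technical. The 4 Wild type(Dmt1) arrays shared 1 slide and the 4 Dmt1Tg arrays another, scanned on the same day, so slide and genotype cannot be told apart. Of 170305 probes, 161460 lay on the 19 autosomes, 8723 on X and 122 on Y, and every value below is the log2 ratio of tumour to kidney after the autosomal median of its array was set to 0.

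Dmt1 is the divalent metal transporter encoded by Slc11a2, which brings ferrous iron across the apical membrane of enterocytes and out of endosomes after transferrin uptake. Iron that is not bound or stored drives the Fenton reaction, whose hydroxyl radicals oxidise DNA bases and break DNA strands, and iron carried by asbestos fibres is held to be one source of DNA damage in the mesothelium. Mesothelioma is known for losing the tumour suppressors Cdkn2a, which encodes p16 and an activator of p53, and Nf2, which encodes merlin, an upstream brake of the Hippo pathway and its effector Yap1. Array comparative genomic hybridisation reads such losses and gains as runs of neighbouring probes with ratios below or above 0.

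The probes on which the results below turned are shown here. Several differences between the groups were much larger at a single probe of a gene than over its other probes or the DNA around it. Those of Slc11a2 are the only probes on the transporter itself, that of Birc2 and those of Yap1 lie in the largest focal gain, and the last 3 had the largest group difference among the probes of Pak6, Dnah17 and Ndufv2.
Slc11a2 probe 1: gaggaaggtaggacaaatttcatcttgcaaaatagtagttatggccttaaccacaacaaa
Slc11a2 probe 2: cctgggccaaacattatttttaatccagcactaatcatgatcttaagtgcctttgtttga
Slc11a2 probe 3: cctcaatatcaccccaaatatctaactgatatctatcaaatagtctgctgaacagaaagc
Birc2 probe 1: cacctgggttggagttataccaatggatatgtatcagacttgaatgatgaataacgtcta
Yap1 probe 5: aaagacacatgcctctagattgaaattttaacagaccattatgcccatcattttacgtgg
Yap1 probe 6: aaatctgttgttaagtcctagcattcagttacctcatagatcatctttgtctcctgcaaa
Pak6 probe 1: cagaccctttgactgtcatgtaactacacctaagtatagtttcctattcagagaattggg
Dnah17 probe 4: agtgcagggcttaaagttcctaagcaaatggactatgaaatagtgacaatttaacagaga
Ndufv2 probe 1: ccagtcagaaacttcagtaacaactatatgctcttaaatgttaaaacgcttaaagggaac

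In the mm9 build used by the array, the Slc11a2 probes lie at chr15:100222603-100222662, chr15:100230118-100230177 and chr15:100243057-100243116, and the Birc2 probe at chr9:7822664-7822723. The Yap1 probes lie at chr9:7970223-7970282 and chr9:7978871-7978930, that of Pak6 at chr2:118497172-118497231, that of Dnah17 at chr11:117930374-117930433 and that of Ndufv2 at chr17:66428431-66428490. Probe numbers follow the chromosome from its start. The gene of each probe is the one named in the array files, and their strand and place in exon or intron were not analysed here.

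The Wild type(Dmt1) arrays were noisier from probe to probe than the Dmt1Tg arrays. The noise between neighbouring autosomal probes was 0.258, 0.266, 0.241 and 0.240 in Dmt1Tg 1 to 4 and 0.535, 0.405, 0.383 and 0.368 in Wild type(Dmt1) 1 to 4, with no overlap (exact permutation test, two-sided p = 0.0286, the smallest that 4 against 4 allows). Averaging narrowed the gap: over 20 probes the noise was 0.105 to 0.109 against 0.121 to 0.148, and over 50 probes 0.0860 to 0.0903 against 0.0817 to 0.10, where the groups overlapped (exact p = 0.371). Shares and tests of regions therefore used windows of 50 consecutive probes, of which there were 3219 on the autosomes and 174 on X, with a median length of 0.614 Mb. Wild type(Dmt1) 1 stood apart in other ways as well: all 19 of its autosomes had a mean above 0, and its autosomal mean was 0.06 although its median was 0. The mean of X lay between 0.71 and 0.96 on all 8 arrays and that of Y between -3.14 and -1.24. Over all arrays of the series X went down to -0.07 and Y up to 0.05. Whether tumour and kidney came from the same sex was not tested, so these means are not read as a gain of X or a loss of Y.

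**Figure D1:**
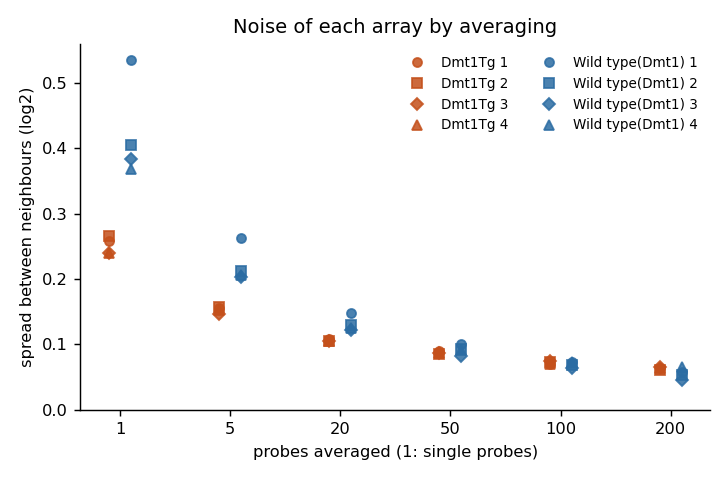
Noise between neighbouring windows (vertical axis, log2 units) against the number of probes averaged (horizontal axis), 1 point per tumour. All Wild type(Dmt1) points lie above all Dmt1Tg points up to 20 probes, and the groups overlap from 50 probes on.

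The clearest copy-number event of the Dmt1Tg group was a focal gain near the start of chromosome 9 in 1 tumour, Dmt1Tg 4. Over chr9:7160009-10891958 (3.73 Mb, 300 probes) its mean was 0.74 with a standard error of 0.02 over probes, while Dmt1Tg 1, 2 and 3 had 0.06, 0.02 and 0.04 and Wild type(Dmt1) 1 to 4 had 0.30, 0.02, 0.04 and 0.15. The same length of DNA before it measured 0.13 in Dmt1Tg 4 and after it 0.12, so the step was local. The 12 other tumours of the series ranged from -0.20 to 0.17 over the same probes. They are Mutyh, Ogg1 and Mth1 knockouts and a further wild-type set, labelled Wild type. Read in windows of 20 probes, the stretch at or above 0.37 (the mean of the gain divided by 2) ran over chr9:6777790-11772359, 4.99 Mb, with a mean of 0.71, a lowest window of 0.42 and a highest of 0.88. A ratio of that size is 1.64 times the kidney's. In log2 units it is 0.77 of the mean of the X chromosome on the same array.

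The gained interval held 32 gene names of the array. From its start it held Dync2h1, the motor of retrograde transport in cilia, and Dcun1d5, and went on through a cluster of matrix metalloproteinases that cut collagen and other matrix proteins: Mmp13, Mmp12, Mmp1b, Mmp3, Mmp1a, Mmp8, Mmp27 and Mmp20. Next came Birc2 and Birc3, ubiquitin ligases of the inhibitor-of-apoptosis family, and Yap1, the transcriptional co-activator restrained by Nf2 through the Hippo kinases. Beyond them lay Trpc6, a cation channel, Pgr, the progesterone receptor, Arhgap42, a GTPase-activating protein, and Cntn5, a neuronal adhesion molecule. The block that holds Birc2 and Yap1 is known as a site of amplification in mouse tumour models.

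Yap1 itself (7 probes, chr9:7937019-7995395) measured 0.00, 0.00, -0.02 and 0.67 in Dmt1Tg 1 to 4 and 0.88, 0.27, 0.27 and 0.16 in Wild type(Dmt1) 1 to 4. One tumour of each group was high, and the groups overlapped, with a difference of -0.23 (standard error 0.19, limma adjusted p = 0.660). The 50 probes around the gene separated the 2 high tumours: they averaged 0.76 in Dmt1Tg 4 but 0.22 in Wild type(Dmt1) 1, and between -0.02 and 0.12 in the other 6. In Wild type(Dmt1) 1 the height of Yap1 rested mostly on 3 probes, probe 5 at 2.16, probe 7 at 1.42 and probe 1 at 1.15, while probe 6, printed above, measured 0.12. In Dmt1Tg 4 probe 6 measured 0.62 and probe 5 0.23, and the 7 probes ran from 0.23 to 1.60. Probe 7 was high in all 4 Wild type(Dmt1) tumours, between 1.01 and 1.46. Birc2 probe 1 measured 0.54 in Dmt1Tg 4, between -0.32 and -0.05 in the other Dmt1Tg tumours and between 0.19 and 0.34 in Wild type(Dmt1). Over the whole 4.99 Mb, Wild type(Dmt1) 1 averaged 0.32 with 6 of 18 windows at or above 0.37, and Wild type(Dmt1) 4 averaged 0.16 with 1 such window. No window in any of the other 5 tumours reached 0.37.

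**Figure D2:**
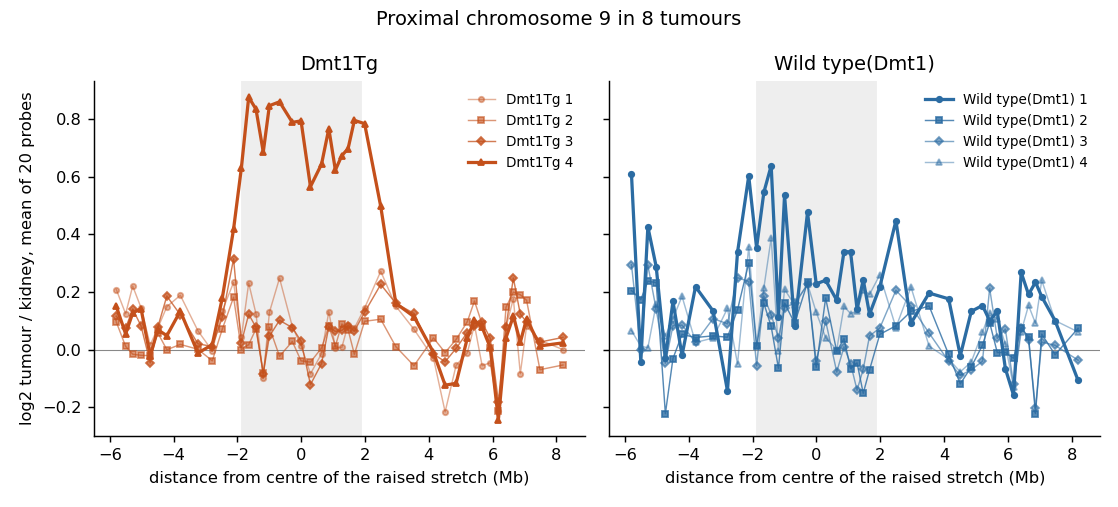
Mean log2 ratio of 20-probe windows along the start of chromosome 9, plotted as distance from the centre of the gain (Mb), with 1 panel per group, 1 line per tumour and the 3.73 Mb of the gain shaded. Over the wider stretch of 4.99 Mb (18 windows), Dmt1Tg 4 averages 0.71 and Wild type(Dmt1) 1 averages 0.32 with single windows as low as 0.08.

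Among the autosomes, the largest whole-chromosome shift lay in a wild-type tumour. Chromosome 15, which carries Slc11a2, averaged 0.32 in Wild type(Dmt1) 2, and 132 of its 133 windows (99.2%) were above 0. Wild type(Dmt1) 4 averaged 0.11 with 113 of 133 windows above 0, Wild type(Dmt1) 1 averaged 0.05 and Wild type(Dmt1) 3 averaged 0.00. The Dmt1Tg tumours averaged -0.01, -0.01, -0.02 and -0.01, with 69 to 78 windows above 0. The rise in Wild type(Dmt1) 2 ran the length of the chromosome, with means of 0.35, 0.35, 0.29 and 0.29 over 4 equal parts from its start. In log2 units it came to 0.334 of that tumour's X mean. In Wild type(Dmt1) 4 the same 4 parts measured 0.15, 0.13, 0.08 and 0.06. Among its genes, Stk3, a Hippo kinase, measured 0.48 in Wild type(Dmt1) 2 against 0.01 to 0.06 in Dmt1Tg, and Csmd3, one of the longest genes of the genome, 0.27 against 0.02 to 0.09.

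Chromosome 5 was raised in stretches in the same tumour. Over chr5:113293551-116497535 (300 probes), an interval that holds Ung, the uracil-DNA glycosylase of base excision repair, Wild type(Dmt1) 2 averaged 0.54, the other Wild type(Dmt1) tumours 0.16, 0.15 and 0.09, and the Dmt1Tg tumours -0.02, -0.06, -0.14 and 0.00. Over chr5:143118311-146128520 it averaged 0.31, against -0.09 to 0.00 in Dmt1Tg and -0.02 to 0.12 in the other Wild type(Dmt1) tumours. The mean of the whole chromosome was 0.11 in Wild type(Dmt1) 2. Dmt1Tg means of chromosome 5 ran from -0.02 to 0.01 and Wild type(Dmt1) means from 0.02 to 0.11.

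Set side by side over the 20 chromosomes tested (19 autosomes and X), the groups did not overlap on 3 (15.0%): chromosomes 5, 15 and 19, each lower in Dmt1Tg. The differences were -0.06, -0.13 and -0.04, each with an exact permutation p of 0.0286 and a Benjamini-Hochberg adjusted p of 0.190. With the median profile of the 12 other tumours regressed out, the groups overlapped on all 3. The chromosomes that separated then were 11 and 18, higher in Dmt1Tg by 0.02 and 0.01. On chromosome 15 the Wild type(Dmt1) mean was carried by tumours 2 and 4, and Wild type(Dmt1) 3, at 0.00, lay next to the Dmt1Tg tumours. Without Wild type(Dmt1) 4 the groups separated on 6 chromosomes. On chromosome 19 the Dmt1Tg means ran from -0.07 to -0.06 and the Wild type(Dmt1) means from -0.05 to 0.02. X did not separate the groups, with 0.89, 0.82, 0.90 and 0.92 in Dmt1Tg and 0.90, 0.96, 0.96 and 0.71 in Wild type(Dmt1).

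**Figure D3:**
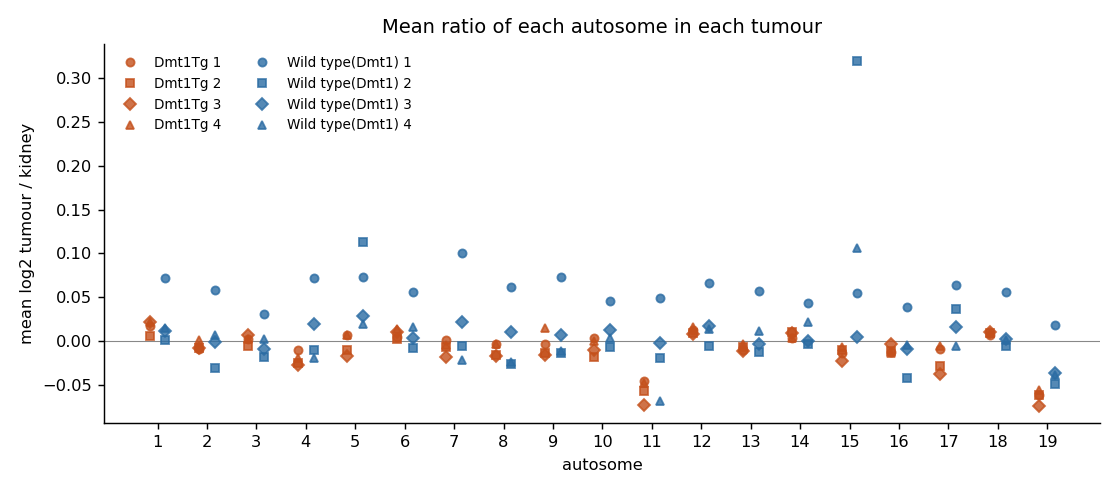
Mean log2 ratio of each autosome in each tumour, with the autosomes along the horizontal axis and 1 point per tumour. Wild type(Dmt1) 2 stands at 0.32 on chromosome 15, and all 19 points of Wild type(Dmt1) 1 lie above 0.

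A stretch was counted where at least 3 consecutive windows of a tumour lay at least 0.3 from the median of the other 7. Dmt1Tg 1, 2 and 3 and Wild type(Dmt1) 3 had none, and Dmt1Tg 4 had only the gain on chromosome 9. Wild type(Dmt1) 2 had 13, namely 11 on chromosome 15 and the 2 on chromosome 5. Wild type(Dmt1) 1 had 4, on chromosomes 7, 8, 11 and 17, with means of only 0.19, 0.13, 0.01 and 0.14, set against other tumours that were below 0 there. They included Tead2, a DNA-binding partner of Yap1, on chromosome 7, and Mdc1, a scaffold of the DNA damage checkpoint, on chr17:34421359-36778160. Wild type(Dmt1) 4 had 1, on X at chr X positions 91096334 to 93314364, lower than the others at 0.62 against 0.82 to 1.01. Autosomal windows in stretches numbered 0, 0, 0 and 6 in Dmt1Tg and 14, 68, 0 and 0 in Wild type(Dmt1), and the groups overlapped (exact permutation p = 0.429).

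No tumour of either group showed a deep loss of Cdkn2a. Its 2 probes averaged 0.09, -0.21, -0.19 and 0.01 in Dmt1Tg and -0.58, -0.14, 0.08 and -0.27 in Wild type(Dmt1). The 50 probes around it were between 0.06 and 0.14 in Dmt1Tg and between 0.05 and 0.17 in Wild type(Dmt1), so the low value of Wild type(Dmt1) 1 was not shared by its neighbours. The lowest of the 12 other tumours of the series reached -1.76 at the gene and -1.30 around it. Mtap, the neighbouring purine-salvage gene often lost together with Cdkn2a, lay between -0.09 and 0.29 in Dmt1Tg and between 0.02 and 0.34 in Wild type(Dmt1). The groups overlapped at both genes.

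Nf2 (8 probes) measured -0.09, -0.31, -0.27 and -0.26 in Dmt1Tg and -0.01, -0.06, -0.10 and -0.32 in Wild type(Dmt1), a difference of -0.11 (standard error 0.08, limma adjusted p = 0.612). The groups overlapped, and Wild type(Dmt1) 4 was the lowest of the 8. Trp53, which encodes p53, has 2 probes, at -0.14, -0.40, -0.45 and -0.00 in Dmt1Tg and 0.28, -0.10, -0.48 and -0.60 in Wild type(Dmt1). The probes around Trp53 were below 0 in all 8, between -0.48 and -0.38 in Dmt1Tg and between -0.37 and -0.22 in Wild type(Dmt1). They were also below 0 in the 12 other tumours of the series, from -1.01 to -0.32 with a median of -0.54. Of the other Hippo genes, Lats1 ran from -0.22 to -0.10 in Dmt1Tg and from -0.53 to 0.00 in Wild type(Dmt1), and Lats2 from -0.40 to -0.19 and from -0.25 to 0.24. Neither passed the test.

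Slc11a2, the gene of the transporter itself, was below 0 in all 8 tumours. Tumour and kidney carry the same labelled genotype, and whether the ratio reads out the transgene was not tested. The 3 probes averaged -0.64, -0.73, -0.72 and -0.94 in Dmt1Tg 1 to 4 and -0.32, -0.20, -0.40 and -0.64 in Wild type(Dmt1) 1 to 4. Dmt1Tg 1 and Wild type(Dmt1) 4 touched, and the difference of -0.36 (standard error 0.10) did not pass over all genes (limma adjusted p = 0.155), though it did without Wild type(Dmt1) 4 (0.0445) and with limma's array weights (0.0466), which were lowest for Wild type(Dmt1) 1 and 4. It was largest at 1 probe. Probe 3 measured -0.91, -0.87, -0.87 and -1.13 in Dmt1Tg and -0.03, 0.33, 0.39 and -0.26 in Wild type(Dmt1), whereas without it the gene differed by -0.02. Probe 1 went the other way, from -0.71 to -0.37 in Dmt1Tg and from -0.90 to -0.72 in Wild type(Dmt1). The kidney signal of probe 3 was 9.7 on the log2 scale in both groups. The 50 probes around Slc11a2 averaged -0.34 in Dmt1Tg and -0.14 in Wild type(Dmt1), where Wild type(Dmt1) 2, with the raised chromosome 15, stood at 0.04. In the 12 other tumours of the series the gene ranged from -2.01 to -0.12.

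Across all genes with at least 3 probes, 4 of 9491 (0.0421%) passed an adjusted p under 0.05 in limma, each at 0.040: Pak6, Dnah17 and Camk2a lower in Dmt1Tg (0.0316%) and Ndufv2 higher (0.0105%). Those with an unadjusted p under 0.05 numbered 1226 (12.9%), and the groups did not overlap at 652 genes lower (6.87%) and 180 higher (1.90%) in Dmt1Tg. Pak6, a p21-activated kinase, measured 0.03, 0.18, -0.17 and 0.08 in Dmt1Tg and 0.93, 0.85, 1.03 and 0.62 in Wild type(Dmt1), a difference of -0.83 (standard error 0.10). Dnah17, a heavy chain of axonemal dynein, measured 0.10, 0.23, -0.00 and 0.14 against 0.85, 0.88, 0.92 and 0.57, a difference of -0.69. Camk2a, a calcium/calmodulin-dependent kinase of neurons, lay between 0.13 and 0.16 in Dmt1Tg and between 0.60 and 0.73 in Wild type(Dmt1). With each array centred on the mode of its ratios, 22 genes passed, 1 higher and 21 lower. The number of genes passing was 162 without Wild type(Dmt1) 4, 73 without Wild type(Dmt1) 1 and 0 without any single one of the others (863 to 1133 unadjusted). In Pak6, Dnah17 and Camk2a it was Wild type(Dmt1) that departed from 0. Ndufv2, a subunit of respiratory complex I, measured -0.50, -0.36, -0.43 and -0.41 in Dmt1Tg and -0.94, -0.88, -0.80 and -0.93 in Wild type(Dmt1).

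None of the 4 genes lay in a region that differed as much as the gene did. The 50 probes around them differed by -0.08 for Pak6, -0.18 for Dnah17, -0.08 for Camk2a and -0.00 for Ndufv2. Pak6 probe 1 carried most of that gene's difference. It measured 0.00, 0.39, 0.01 and 0.47 in Dmt1Tg and 1.65, 1.84, 2.66 and 1.68 in Wild type(Dmt1), while probes 2 and 3 differed by -0.47 and -0.28. The kidney signal of probe 1 was 8.85 on the log2 scale in Dmt1Tg and 8.16 in Wild type(Dmt1), well above background on 7 of the 8 arrays. In the 12 other tumours probe 1 ran from -1.92 to 1.76. In Dnah17, probes 2, 3 and 4, which span chr11 positions 117898753 to 117930374 by their starts, differed by -1.07, -1.24 and -1.34, and probe 4 stood at 0.58, 0.72, 0.31 and 0.67 against 2.06, 2.34, 2.20 and 1.04. Probes 5 and 6 differed by -0.15 and 0.08. Ndufv2 probe 1 differed by 1.22, but its kidney signal was well above background on 1 of the 8 arrays, and that of Camk2a probe 6, which differed by -1.45, on 2 of 8. The other 6 Camk2a probes, above background on all 8 arrays, were lower in Dmt1Tg as well, with differences from -0.47 to -0.18. With the most different probe of each gene left out, no gene passed (481 had an unadjusted p under 0.05), and the differences became -0.37 for Pak6, -0.56 for Dnah17, -0.33 for Camk2a and 0.09 for Ndufv2. The groups still did not overlap at Pak6, Dnah17 and Camk2a, and overlapped at Ndufv2. Throughout, the probe left out was picked by its group difference in these same data. Leaving it out tends to shrink a difference by construction, so overlap without it does not show that the difference rested on 1 probe. Values of Dnah17 in the 12 other tumours ran from -0.86 to 0.64, on both sides of 0.

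**Figure D4:**
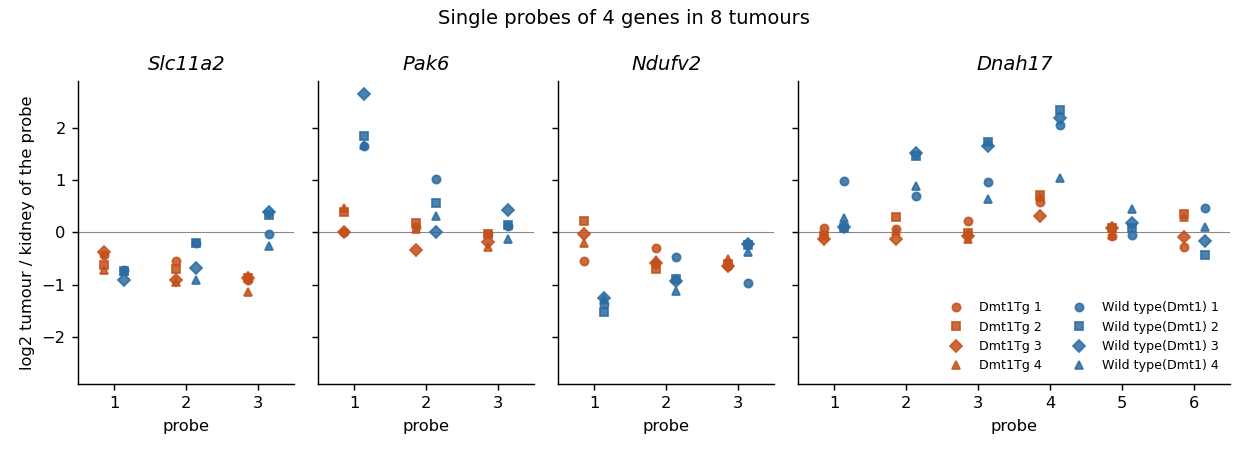
Log2 ratio of each probe of Slc11a2, Pak6, Ndufv2 and Dnah17, 1 panel per gene with the probes in the order of the chromosome and 1 point per tumour. The groups lie farthest apart at Pak6 probe 1, Dnah17 probes 2 to 4, Ndufv2 probe 1 and Slc11a2 probe 3. At Ndufv2 probe 1 and Slc11a2 probe 1 Dmt1Tg is the higher group.

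Among 3393 windows, 3 (0.0884%) passed, each lower in Dmt1Tg with a limma adjusted p of 0.046. The largest difference, -0.38 (standard error 0.06), was at chr10:80008962-80461945, with Dot1l, a histone methyltransferase, Lmnb2, a nuclear lamin, Sf3a2, a splicing factor, and Ap3d1, an adaptor subunit of vesicle traffic. It measured -0.45, -0.41, -0.56 and -0.40 in Dmt1Tg and 0.04, -0.10, 0.02 and -0.24 in Wild type(Dmt1), and the median of the 12 other tumours there was -0.81. The window at chr4:147719121-148315861, with Mtor, the growth-controlling kinase, Exosc10, a catalytic subunit of the RNA exosome, and Tardbp, an RNA-binding protein, ran from -0.21 to -0.12 in Dmt1Tg and from -0.00 to 0.09 in Wild type(Dmt1). The window at chr6:30801849-31462981, with Copg2, a coatomer subunit, and Mkln1, ran from -0.20 to -0.17 and from 0.01 to 0.06. At all 3, Dmt1Tg was on the side of the median of the 12 other tumours, wild types among them, and Wild type(Dmt1) nearer to 0. The count depended on which tumours were in the fit. Without Wild type(Dmt1) 4, 288 windows passed (14 higher and 274 lower), the 3 among them, and without Wild type(Dmt1) 1 only 1 passed. Without any single one of the other 6 limma called none. In those 6 fits 298 to 501 windows had an unadjusted p under 0.05, against 537, or 15.8%, with all 8. Windows in which the groups did not overlap numbered 235 lower (6.93%) and 52 higher (1.53%) in Dmt1Tg.

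That resemblance held over the genome. Across the 3219 autosomal windows, the profile of each Dmt1Tg tumour correlated with the median profile of the 12 other tumours, wild types among them, at r from 0.773 to 0.911. That of the Wild type(Dmt1) tumours correlated with it at r from 0.253 to 0.756, without overlap (exact permutation p = 0.0286 over tumours). Pairs of Dmt1Tg tumours correlated at a median of 0.864 and pairs of Wild type(Dmt1) tumours at 0.527. Wild type(Dmt1) 4 correlated with Dmt1Tg at 0.733 to 0.834, and Wild type(Dmt1) 1 to 3 with Dmt1Tg at 0.441 to 0.656. These are descriptions across windows, which share the base composition and gene content of their probes on every array. The 12 other tumours were scanned on another day and on other slides than these 8. On Wild type 1 and 2 among them, 6.79% and 4.68% of spots lay in surface patches where the local median ratio departed by more than 0.5. On Mutyh knockout 1 it was 0.26%. The ranges given for the 12 include these arrays. What these differences contribute to the shared profile was not tested.

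The iron genes were measured as a list chosen for the transgene. Of 17 names of iron uptake and transport, 8 had at least 3 probes, none passed, and 3 (37.5%) had an unadjusted p under 0.05, against 12.9% of all genes. Their median difference was -0.03, the same as over all genes (-0.03), with 2 above 0 and 6 below. Over all genes 39.7% of differences were above 0 and 60.3% below, and the lists that follow are to be read against these shares. Besides Slc11a2, the 3 were Slc39a14, a zinc and iron importer, at -0.22, -0.20, -0.37 and -0.25 in Dmt1Tg against 0.28, -0.08, -0.09 and -0.17, and Steap3, the endosomal ferric reductase, at 0.03 to 0.15 against 0.15 to 0.65. The groups did not overlap at either, and the differences were -0.24 for each. Without the most different probe of each gene they became -0.20 and -0.09, and the groups overlapped at both. Trf, which encodes transferrin, lay between 0.16 and 0.37 in Dmt1Tg and between 0.13 and 0.38 in Wild type(Dmt1).

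Of iron export, storage and sensing, 10 genes were tested, none passed, 1 had an unadjusted p under 0.05, and the median difference was -0.08. That gene was Aco1, the iron-responsive-element-binding protein 1, at -0.29, -0.28, -0.47 and -0.30 in Dmt1Tg and -0.19, 0.02, 0.10 and -0.01 in Wild type(Dmt1) (difference -0.32, limma adjusted p = 0.121). Without its most different probe the difference was -0.15 and the groups overlapped. Heph, the ferroxidase hephaestin on X, ran from 0.90 to 1.08 in Dmt1Tg and from 0.84 to 1.08 in Wild type(Dmt1). X as a whole was high on these arrays. Ireb2, the second iron-regulatory protein, ran from -0.31 to -0.25 and from -0.52 to 0.07. Of 7 tested genes of ferroptosis and antioxidant defence none passed and none had an unadjusted p under 0.05, with a median of 0.01. Nfe2l2, the master regulator of the antioxidant response, was below 0 in all 8, from -0.61 to -0.45 and from -0.51 to -0.13.

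No gene of DNA repair or the damage checkpoint passed the test. Of 4 tested base excision repair genes, all 4 differences were below 0, none had an unadjusted p under 0.05, and the median was -0.12, against -0.03 over all genes. Lig3, the ligase of that pathway, ran from -0.31 to -0.01 in Dmt1Tg and from -0.25 to 0.39 in Wild type(Dmt1). Of 18 double-strand break and checkpoint genes none passed, 1 had an unadjusted p under 0.05, and the median was -0.05. That gene was Xrcc6, which encodes the Ku70 end-binding protein, on chromosome 15: -0.32, -0.17, -0.32 and -0.40 against 0.09, 0.21, 0.14 and -0.02, a difference of -0.41 (standard error 0.07, limma adjusted p = 0.077). Its surroundings differed by -0.17, without overlap. Without its most different probe the difference was -0.30 and the groups overlapped. Brca1 ran from -0.37 to -0.25 and from -0.25 to -0.16.

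Among mesothelioma suppressors 19 were tested, none passed, 2 (10.5%) had an unadjusted p under 0.05, against 12.9% of all genes, and 14 differences were below 0 (median -0.07, against -0.03). The 2 were Sufu, a brake on Hedgehog signalling, at -0.46, -0.42, -0.48 and -0.55 against 0.04, -0.13, -0.18 and -0.33, and Wwc1, a Hippo regulator, at -0.25 to -0.17 against -0.13 to 0.04. Without the most different probe Sufu went from -0.32 to -0.17 and Wwc1 from -0.16 to -0.10, and the groups overlapped at both. Among growth oncogenes 15 were tested and 3 (20.0%) had an unadjusted p under 0.05, with 13 below 0 and a median of -0.11. They were Pdgfra, a platelet-derived growth factor receptor, at 0.05 to 0.27 against 0.28 to 0.51, Igf1r, the insulin-like growth factor receptor, at -0.38 to -0.28 against -0.24 to -0.04, and Tead4, another partner of Yap1, at -0.16 to 0.06 against 0.02 to 0.34. None of these had an adjusted p under 0.05. Without its most different probe Pdgfra went from -0.23 to -0.10, with overlap. Met ran from -0.25 to -0.14 and from -0.21 to 0.11, and Egfr from -0.48 to -0.20 and from -0.45 to -0.03, both overlapping.

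Of 23 chromatin regulators none passed and 6 had an unadjusted p under 0.05 (26.1%, against 12.9% of all genes), with a median of -0.04. Arid2, a subunit of a chromatin-remodelling complex on chromosome 15, measured -0.18, -0.17, -0.09 and -0.18 in Dmt1Tg and -0.05, 0.26, 0.03 and 0.21 in Wild type(Dmt1). Its 2 high values came from Wild type(Dmt1) 2 and 4, the tumours with the highest chromosome 15. Hdac1, a histone deacetylase, differed by -0.51 (limma adjusted p = 0.123), but by 0.04 once probe 3 was left out. Of 22 long genes at fragile sites none had an unadjusted p under 0.05. Their median was 0.02 and 18 differences were above 0, and Wwox measured 0.07 to 0.12 against -0.01 to 0.10. Of 52 genes in families that vary in copy number between mouse strains none passed, 5 (9.62%) had an unadjusted p under 0.05, and the differences ran from -0.53 to 0.59 with a median of -0.01. Skint2, of a family that shapes skin T cells, had the highest, at 0.03 to 0.32 against -0.70 to -0.07 (limma adjusted p = 0.109). Cyp2c38, a cytochrome P450, differed by -0.40 (limma adjusted p = 0.121), at -0.16 to 0.18 against 0.26 to 0.56, and Vmn2r95, a vomeronasal receptor, by -0.28. Of the list genes with the smallest p, 13 had groups that did not overlap. Once the most different probe was left out, 12 of them overlapped and Arid2 did not. Because that probe was picked by its group difference, this count leans towards overlap.

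Measured as the share of autosomal windows, gains were less frequent in Dmt1Tg without overlap, but did not pass once adjusted. Losses were not separated. Windows at or above 0.2 made up 1.15%, 1.06%, 0.65% and 1.40% of the genome in Dmt1Tg 1 to 4 and 9.69%, 6.80%, 1.8% and 2.42% in Wild type(Dmt1) 1 to 4. The groups did not overlap, with a difference of -4.12 percentage points (exact permutation test, two-sided p = 0.0286, adjusted over the 3 measures of this paragraph 0.0857). Without chromosomes 5 and 15 the difference was -2.54 points (exact p = 0.0286). The 2 highest shares belonged to Wild type(Dmt1) 1, the noisiest array, and to Wild type(Dmt1) 2, with chromosome 15. The share of Wild type(Dmt1) 1 depended on the processing. With normexp background correction 1.99% of its windows were gained and 9.69% lost. With centring on the mode 22.9% were gained and 0.25% lost. Windows at or below -0.2 made up 5.47%, 6.80%, 8.42% and 6.34% in Dmt1Tg and 1.09%, 4.04%, 1.43% and 7.15% in Wild type(Dmt1), a difference of 3.33 points with overlap through Wild type(Dmt1) 4 (exact p = 0.114), and 4.57 points without that tumour (exact p = 0.0286). The gained share missed the threshold without any 1 of the Dmt1Tg tumours, at -4.23 to -3.98 points (exact p = 0.143 to 0.171), although the groups still did not overlap. The standard deviation of the windows was 0.112, 0.113, 0.127 and 0.119 against 0.114, 0.131, 0.093 and 0.125 (exact p = 0.83). With the median profile of the 12 other tumours regressed out, the lost share was 0.03% to 0.16% in Dmt1Tg and 0.62% to 2.55% in Wild type(Dmt1), and the direction turned.

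**Figure D5:**
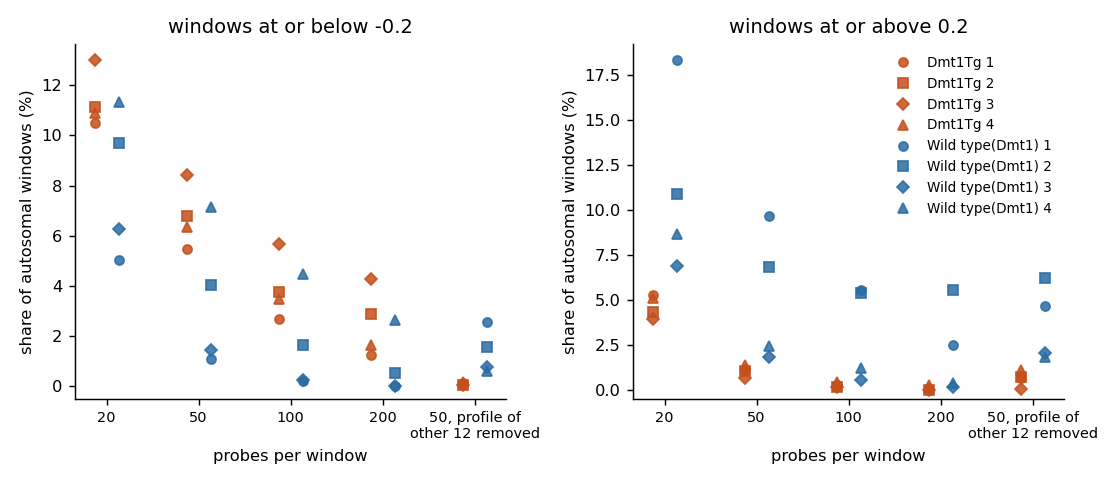
Share of autosomal windows at or below -0.2 (left) and at or above 0.2 (right) in percent, 1 point per tumour, for windows of 20, 50, 100 and 200 probes and for 50 probes with the median profile of the 12 other tumours removed. At 50 probes the gained shares of Dmt1Tg, up to 1.40%, lie below all Wild type(Dmt1) shares, while the lost shares overlap.

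The group difference was largest where probes were densest and richest in G and C. Autosomal windows were ranked by length and divided into 4 parts. In the part with the shortest windows, where the array places probes most closely, Dmt1Tg averaged -0.05 and Wild type(Dmt1) -0.00, and 11.4% of windows were lower in Dmt1Tg without overlap, against 6.93% of all windows. In the part with the longest windows both averaged 0.05 and 1.74% were lower without overlap. By base composition, the share was 11.1% in the part of 4 with the highest G and C content and 3.73% in the lowest. The probe ratio correlated with G and C content at r from 0.054 to 0.099 in Dmt1Tg and from 0.023 to 0.197 in Wild type(Dmt1), the highest in Wild type(Dmt1) 1. The part of base composition in the windows and genes named above was not tested probe by probe. With a correction for it on every array, limma called no window and no gene (493 windows and 1235 genes had an unadjusted p under 0.05).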

How the data were processed

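The series holds 20 tumours on 2-colour comparative genomic hybridisation arrays, and 8 of them were compared, 4 Dmt1Tg and 4 Wild type(Dmt1). Per the file headers, the authors scanned each array with Agilent Feature Extraction 10.7.1.1 in its CGH protocol and mm9 probe positions, which subtracted background, detrended and dye-normalised the red and green intensity of each spot and deposited their ratio as a log10 value. The authors' deposited table of log2 values matched these log10 ratios and served as an alternative. Spots flagged as control or outlier were left out. The remaining ratios were turned to log2, averaged over spots of one probe and centred on the autosomal median, without further normalisation within or between arrays. The deposited background flags (0 or 1, unit other) and the deposited mean intensity with its background, corrected by normexp with an offset of 50, gave alternatives. Gene names are those of the array, updated where a RefSeq table allowed.

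Windows held 50 consecutive probes, genes at least 3. Both were tested with limma 3.58.1 (R 4.3.3, lmFit and eBayes on the 8 arrays, Benjamini-Hochberg adjusted p under 0.05), and single values with an exact permutation test over the 70 ways to split 4 against 4 (Python 3.11.15, numpy 2.4.6, pandas 2.3.3, scipy 1.17.1). On simulated data of 3393 windows limma recovered 99% of 100 changes of 0.5 log2, and of 9491 genes 76% of 100. False calls were 15 for windows and 13 for genes, the same count at changes of 0.5 and of 1 log2. How many false calls go with the numbers that passed here was not tested. Named were up to 8 genes and 4 windows each way that passed without overlap, largest difference first, up to 3 genes of each list with the smallest p, list genes in up to 3 stretches a tumour, and Slc11a2, Cdkn2a, Nf2, Trp53 and Yap1. Others named as members of a list or an interval were chosen after their values were seen. The groups, lists and tests were chosen with earlier results of these data known. No array name matched the prefixes searched for antigen receptor loci, so that list has no result. Precision is limited by 4 arrays a group and, per array, by probe noise. Left out were the dye-swap check, which a single orientation does not allow, and any check of the transgene. A gene that falls under the naming rule is not reported here.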

Additional observations from a re-analysis of the deposited data

Results flagged for a closer look

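In 132 groups of 4 values, 8 had a highest or lowest tumour set so far from the other 3 that the gap exceeded the 95% limit of Dixon's test, which chance gives in about 1 in 20 groups. Dmt1Tg 4 was the tumour apart in 3 of them: its chromosome 9 gain at 0.740, against 0.06 for the next, its Yap1 at 0.668, against 0.00, and its mean of chromosome 2 at 0.00168, against -0.00800. The chromosome 9 interval was chosen because Dmt1Tg 4 stood apart there, and Yap1 lies inside it. Those flags are therefore a single event, and the chance rate does not apply to them. Wild type(Dmt1) 1 stood apart at Yap1 with 0.883, against 0.27, and on chromosome 18 with a mean of 0.0557, against 0.00274. Dmt1Tg 3 was lowest at Aco1 with -0.472, against -0.30, and highest at Arid2 with -0.0877, against -0.17. Wild type(Dmt1) 2 was highest at Camk2a with 0.729, against 0.62.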

How the results depend on the processing

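Of 755 values of 39 named genes, windows and regions recomputed under the alternatives, 654 kept their side of the threshold, 85 no longer passed and 16 passed newly. Of the 654, 4 changed sign without passing (Txnrd1 in 3 settings and Hdac1 in 1), and no value that passed turned. The number of windows that passed, 3, became 0 with windows of 100 or 200 probes, with the median of a window, with bright probes alone, with the G and C correction (chosen after seeing the data) and with the profile of the other 12 tumours removed, 1 with centring on the mode and with all 20 arrays in the fit, 69 with normexp, 316 with array weights, and 0 to 288 without 1 tumour. With windows of 20 probes, 2 windows passed. The number of genes that passed, 4, became 0 with normexp, with the G and C correction, with all 20 arrays and without the most different probe (also chosen after seeing the data). It became 22 with centring on the mode, 20 with bright probes alone, 12 with at least 5 probes and 14 with at least 1. The 4 named genes were all among the 22, but only 1 was among the 20, 2 among the 12 and 0 among the 14. With array weights 374 genes passed, the 4 among them, and without 1 tumour 0 to 162 passed. Shared replicate numbers did not pair the tumours (same-number correlations of -0.28 to -0.07), and with the number as a replicate block limma called 0 windows and 0 genes (425 and 1107 unadjusted), the gained share kept -4.12 points (exact sign-flip p = 0.125, the smallest possible) and 0 chromosomes could separate. The lost share, 3.33 points, turned to -1.29 with the profile removed and ran from 2.55 to 4.57 without 1 tumour, the highest without Wild type(Dmt1) 4 (exact p = 0.0286). The gained share missed the threshold at 0.1 (-5.83), at 0.3 (-1.47), with 200 probes (-2.07) and with the G and C correction (-3.85). It ran from -5.24 to -2.61 without 1 tumour, and missed the threshold without any 1 Dmt1Tg tumour, where the groups still did not overlap. The difference in window spread turned to -0.00664 with 20 probes, -0.00131 with medians and -0.0337 with the profile removed, and ran from -0.00536 to 0.00707 without 1 tumour. Chromosomes that separated numbered 9 with centring on the mode, 1 with normexp, 11 without Wild type(Dmt1) 2 and 4, 2 (11 and 18, higher in Dmt1Tg) with the profile removed, and 3 to 6 without 1 tumour. The causes were not tested.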
